A study of Mus musculus with 6 samples.

Results

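The genes described here encode the proteins of the cytosolic ribosome in mouse CD8+ T cells. They were taken from the deposited gene table by name (Rpl or Rps followed by a digit, Rplp0 to Rplp2, and Rpsa) where the table's transcript types included protein_coding. Names of the Rps6k kinases, Rps19bp and pseudogenes marked -ps were left out. This gave 84 of 27480 rows, 50 for the large and 34 for the small subunit, spread over 19 chromosomes with 14 on chromosome 7 and 8 each on chromosomes 9 and 17. Only 12 of these rows list protein_coding as their sole type, and 6 further rows of such names have no protein_coding type and were not counted as members. The study measured poly(A) RNA in OT1 CD8+ T cells, killer T cells with a transgenic receptor for an ovalbumin (OVA) peptide. In 3 libraries the cells overexpressed PTMA, the acidic nuclear protein prothymosin alpha, and in 3 they carried the vector of the overexpression system. The genotype label is WT in both groups, and both received OVA peptide for 48 h. The labels used here give no animal age and no promoter for the construct. Whether replicates stem from different animals or cultures is not stated either, and the p-values thus cover the spread of these 6 libraries, which could be technical.

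A ribosome joins a small subunit, which binds the mRNA and reads its codons, to a large subunit, which forms the peptide bond and lets the new chain out through a tunnel. Each subunit holds its proteins in fixed proportions around ribosomal RNA. The mRNAs of nearly all vertebrate ribosomal proteins begin with a run of pyrimidines, the terminal oligopyrimidine (TOP) tract, through which the kinase complex mTORC1 and the RNA-binding protein LARP1 control their translation together. Activated T cells are known to raise ribosome production before they divide.

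The total counts per library were 65548729, 66767589 and 65640178 for PTMA and 54989408, 62995824 and 63011584 for vector. Ptma itself reached 1152, 1346 and 1272 CPM (counts scaled to library size by the TMM method) in PTMA libraries, against 848, 783 and 1146 CPM in vector libraries. Its log2 fold change was 0.44 (SE 0.13), with an adjusted p of 0.951 in edgeR's quasi-likelihood test. The 9 T cell and CD8 markers summed to 6347 to 6767 CPM in PTMA libraries and 6242 to 6709 CPM in vector libraries, with none at 0. Markers of some other cells differed: 8 oocyte genes summed to 1.56 to 4.41 CPM in PTMA libraries and 23.3 to 34.1 CPM in vector libraries, with 5 of the 8 at 0 in at least 1 library. The 6 keratinocyte genes gave 10.7, 2.65 and 1.37 CPM in PTMA libraries, against 1.86, 19.6 and 29.0 CPM in vector libraries, so vector 2 and vector 3 were the highest. The sum of the 7 mature dendritic cell genes in the table went the other way. It was 20.2, 25.4 and 20.2 CPM in PTMA libraries and 16.3, 14.5 and 14.3 CPM in vector libraries. The single genes were mixed: 4 of the 6 tested had a positive log2 fold change (46.8% of all genes tested), with values between -0.53 and 2.78. In this list, 2 genes (Ccl17 and Flt3) were at 0 in at least 1 library. The part of these cells in the values below was not tested, and in bulk RNA fewer cells of a type and less RNA per cell cannot be told apart. Vector 2 and vector 3 stood apart from the other libraries in the ribosomal protein genes, and the counts and medians over members that rest on them are also given without them. Erythroid globin and partner genes summed to at most 0.183 CPM in PTMA libraries and 0.548 CPM in vector libraries.

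The ribosomal protein genes took 3.04, 3.10 and 3.04% of all counts in the PTMA libraries, against 3.04, 2.81 and 3.59% in the vector libraries. The means were 3.06 ± 0.04% and 3.15 ± 0.40% (SD, n = 3 each), a difference of -0.085 percentage points (PTMA minus vector). The PTMA libraries lay close together, while vector 2 was the lowest and vector 3 the highest of all 6. The direction of this difference therefore rests on vector 3, and without it the PTMA mean was 0.137 points higher. Large-subunit genes held 1.82, 1.86 and 1.82% of counts in PTMA libraries and 1.81, 1.68 and 2.15% in vector libraries. Small-subunit genes held 1.22, 1.25 and 1.22% in PTMA libraries and 1.23, 1.13 and 1.44% in vector libraries. The ratio of small- to large-subunit counts stayed between 0.669 and 0.680 in every library, so the subunits moved together from library to library. The 10 genes with most counts held 42.2% of the counts of all 84.

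Levels are compared between genes only per length. On the deposited FPKM scale (fragments relative to gene length and library size), the 82 genes that passed the filter on low counts had a median of 113 FPKM, against 3.10 FPKM over all 16592 genes tested. Rplp0, the base of the stalk that recruits translation factors to the large subunit, had the highest mean of the members. It reached 969, 951 and 919 FPKM in PTMA libraries and 883, 900 and 966 FPKM in vector libraries, and the groups overlapped. Rpl4, Rpl13, Rpl19 and Rps2 were also among the highest. Rpl4, whose protein reaches into the exit tunnel, had 799, 826 and 820 FPKM in PTMA libraries and 744, 744 and 940 FPKM in vector libraries, where vector 3 stood apart. Rpl13 averaged 636 ± 17.6 FPKM in PTMA and 646 ± 61.1 FPKM in vector libraries, and Rpl19 598 ± 5.63 FPKM in PTMA and 598 ± 52.996 FPKM in vector libraries (SD, n = 3 each). In both the vector SD exceeded the PTMA SD. Rps2, at the entry of the mRNA channel, averaged 586 ± 26.5 FPKM in PTMA and 588 ± 34.7 FPKM in vector libraries (SD, n = 3 each).

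The lowest levels among the tested genes belonged to Rpl22, Rps12, Rpl21, Rps21 and Rpl22l1. Rpl22, a large-subunit protein needed in mice for normal T cell development, had 11.6, 13.1 and 12.7 FPKM in PTMA libraries and 11.4, 11.9 and 16.6 FPKM in vector libraries. Rps12 had 13.0, 11.4 and 14.8 FPKM in PTMA libraries, against 13.4, 13.8 and 17.4 FPKM in vector libraries. For these low genes too, vector 3 held the highest value. The order from highest to lowest was mostly gradual: of 81 neighbouring pairs, 2 did not overlap over the 6 libraries, among them Rpl4 above Rpl13. The range of mean FPKM over the 82 genes was 72.2-fold.

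**Figure D1:**
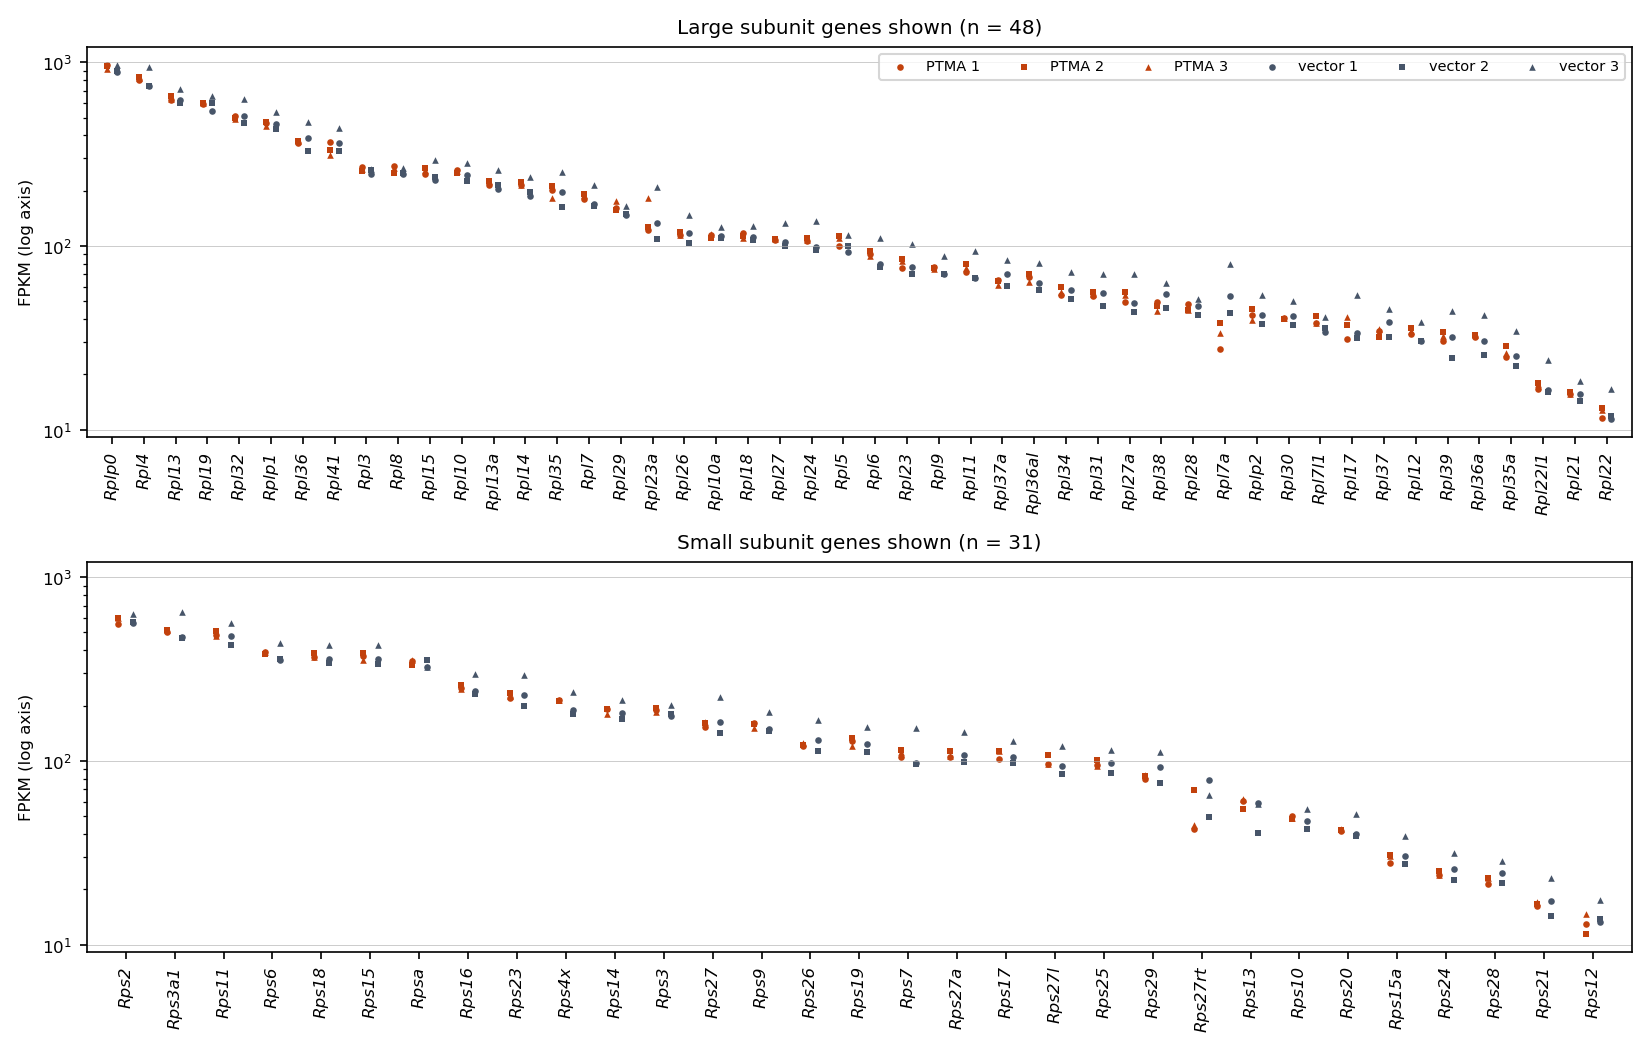
FPKM (log axis) of 79 of the 82 ribosomal protein genes tested in each of the 6 libraries, in order of mean level within each subunit, with PTMA points left of vector points. Levels run between a mean of 12.9 FPKM for Rpl22 and 931 FPKM for Rplp0, and the vector 3 triangle is the topmost point for most genes.

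These FPKM values depend on the length used. The deposited values divide by the union of all annotated exons of a gene, retained introns included, and this union was a median of 2.37 times as long as the gene's principal transcript for members, against 1.47 times over all genes tested that have one. It was 13.4 times as long for Rps24. Per kilobase of the principal transcript, the highest genes were Rpl13 at 2375 and Rps18 at 1825 CPM per kb, and Rplp0 reached 1266 CPM per kb. The lowest were Rps21 at 40.1, Rps20 at 52.5 and Rps12 at 64.0 CPM per kb, and the range was 59.2-fold. The place of Rps20 rests on an annotated principal transcript of 3706 bases. Its mean was 195 CPM, against a median of 226 CPM over the tested members. Whether these cells use that transcript was not tested, so its level per kilobase is uncertain. The 2 orders had a Spearman rho of 0.877 over the members, given as a description, since both scales share the same counts. On this scale 1 of the 81 neighbouring pairs did not overlap. The levels were thus unequal between members on either scale.

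Many of these genes have close copies in the genome. Reads of a spliced ribosomal protein mRNA can also match processed pseudogenes, and how such reads were counted is not given in the sources used here. Of the 84 members, 57 have at least 1 pseudogene named after them in the table, 247 rows in all. In a median family the pseudogenes held 4.67% of the family's counts. They held more than the gene itself in 4 families, 71.5% for Rpl17, 53.8% for Rpl21, 53.5% for Rpl7a and 50.6% for Rps12. Rpl17, another protein at the tunnel exit, had 46.1, 55.2 and 60.2 CPM of its own in PTMA libraries and 50.3, 44.4 and 82.3 CPM in vector libraries. Rpl21 had 59.4, 61.1 and 58.8 CPM in PTMA libraries, against 60.0, 51.6 and 72.4 CPM in vector libraries. The levels of these 4 genes, of which Rpl21 and Rps12 are among the lowest, are thus uncertain. The 17 members with 5 or more named pseudogenes had a median of 339 CPM per kb, and the 65 other tested members 342 CPM per kb. Of the 84 members, 30 overlap another gene that is no small RNA, and with the use of strand unstated their counts may hold reads of that neighbour.

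The other 2 rows of the rule hardly had reads, and both failed the filter. Rpl3l, a paralog of Rpl3 known from heart and skeletal muscle, had 4, 4 and 2 counts in PTMA libraries and 0 in each vector library. A count of 0 allows up to 3 counts, 0.0465 to 0.0536 CPM in the vector libraries, so a fold is not given. Rps23rg1, a retrogene of Rps23, had 11, 11 and 9 counts in PTMA libraries and 5, 1 and 5 counts in vector libraries. Its groups did not overlap, and it was not tested in the edgeR fit reported here. Intervals of this kind cover counting error only. Among the 82 genes tested the lowest count in any library was 801, so depth did not limit them.

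The libraries of the vector group differed in these genes more than those of the PTMA group. For each gene, its log2 CPM in a library was taken relative to its mean over the 6 libraries. The median over the 82 genes was -0.04, 0.03 and -0.03 in the PTMA libraries and -0.04, -0.22 and 0.31 in the vector libraries. Vector 3 was the highest library for 77 of the 82 genes (93.9%), against 22.4% of all genes tested, and vector 2 was the lowest for 75 (91.5%), against 20.6%. Rpl29, Rps13, Rps27rt and Rpsa were among the genes whose highest library was another. The SD of log2 CPM between libraries of 1 group was larger in vector than in PTMA for 80 of the 82 genes (97.6%). The same held for 61.1% of all genes tested. The members' median SDs were 0.268 in vector and 0.058 in PTMA. For 2298 other genes at a mean of 100 CPM or more, the medians were 0.099 in vector and 0.068 in PTMA. The vector SD was the larger for 71.15% of them.

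**Figure D2:**
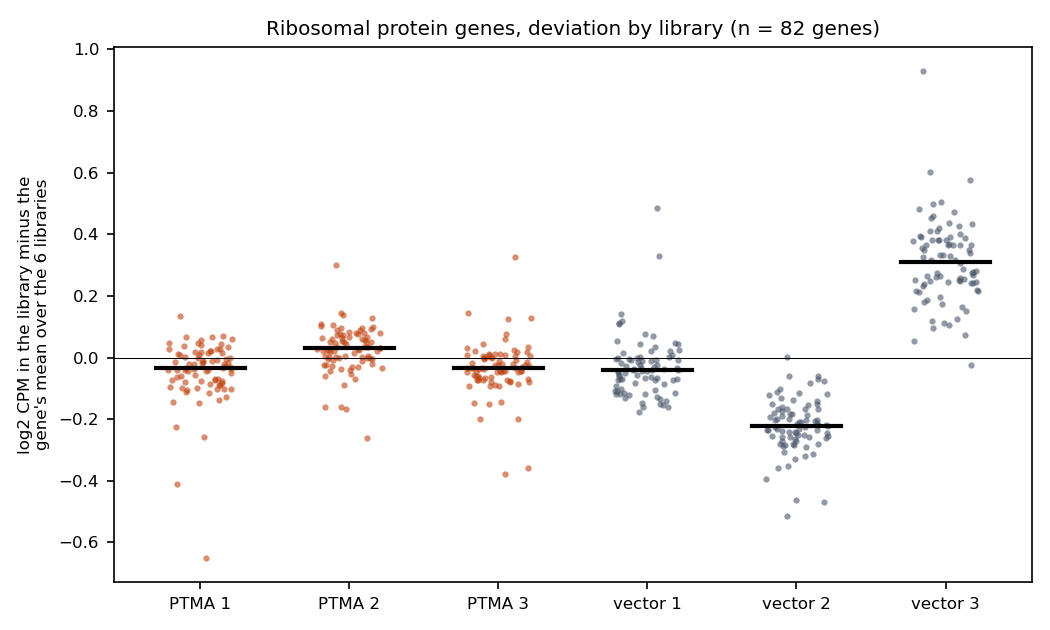
Deviation of each of the 82 ribosomal protein genes from its own mean (log2 CPM), by library, with the median as a black bar. The PTMA clouds sit around 0, the vector 2 median is at -0.22 and the vector 3 median at 0.31.

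The members differed in how far they followed this pattern. The steadiest was Rpsa, a small-subunit protein also known as the laminin receptor, with 1231, 1189 and 1235 CPM in PTMA libraries and 1162, 1200 and 1180 CPM in vector libraries, a pooled within-group SD of 0.03 on the log2 scale. Rpl3, Rpl8 and Rplp0 were also among the 5 steadiest of the 82 genes, with SDs of 0.06, 0.08 and 0.09. The most variable were Rpl23a, Rpl7a, Rps27rt, Rpl17 and Rpl39, with SDs of 0.44, 0.39, 0.39, 0.36 and 0.35. Rpl23a, at the exit of the tunnel, had 116, 121 and 169 CPM in PTMA libraries and 127, 98.0 and 205 CPM in vector libraries, so PTMA 3 was high beside vector 3. Rpl39, a very short tunnel protein, had 48.4, 55.01 and 50.9 CPM in PTMA libraries, against 51.4, 37.4 and 73.4 CPM in vector libraries.

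Other gene sets varied in the same libraries to differing extents. The 157 tested pseudogenes named after ribosomal proteins had median deviations of -0.07, -0.03 and 0.00 in PTMA libraries and 0.03, -0.22 and 0.32 in vector libraries. The 78 tested nuclear genes of the mitochondrial ribosome (Mrpl and Mrps) had 0.03, 0.11 and -0.01 in PTMA libraries and -0.11, -0.16 and 0.17 in vector libraries. The 31 tested mitochondrially encoded genes had -0.17, 0.07 and 0.14 in PTMA libraries and -0.10, -0.20 and 0.28 in vector libraries. In all 3 sets vector 2 was the lowest or nearly so and vector 3 the highest. Among 183 other genes at 100 CPM or more with a principal transcript under 1000 bases, vector 3 was the highest for 52.5% and vector 2 the lowest for 60.1%. Transcript length and the library thus moved with the members' values, and the part of each was not tested.

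The transcription starts of the members were also searched for a pyrimidine run, the feature named above for ribosomal protein mRNAs. RefSeq (GRCm38.p6) gave start sequences for 64 of the 84 members, 76 starts in all. A run of at least 8 bases that are only C or T on the transcribed strand, within 30 bases either side of the start, stood at 37 of the 76 starts (48.7%), against 22.9% of all 32851 starts in the RefSeq table. The median longest run was 7 bases for members and 5 bases for all starts. Below are 15 bases before and 15 bases from the start on, 5′ to 3′, with the longest run of C or T in this window in capitals. Rpl7a, Rpl15, Rpl35, Rpl13a, Rps6 and Rps18 are shown as members with a long run at the start, and Rplp0 and Rpsa as the steady, abundant members whose RefSeq start has a short one.
Rpl7a: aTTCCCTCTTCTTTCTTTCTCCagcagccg
Rpl15: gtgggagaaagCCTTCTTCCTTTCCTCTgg
Rpl35: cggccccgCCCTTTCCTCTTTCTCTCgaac
Rpl13a: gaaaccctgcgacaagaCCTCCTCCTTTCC
Rps6: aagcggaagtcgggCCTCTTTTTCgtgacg
Rps18: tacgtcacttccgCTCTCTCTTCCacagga
Rplp0: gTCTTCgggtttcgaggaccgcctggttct
Rpsa: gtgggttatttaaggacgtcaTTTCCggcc

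On GRCm38 these windows are chr2:26910792-26910821 (Rpl7a, + strand), chr14:18270972-18271001 (Rpl15, - strand), chr2:39005117-39005146 (Rpl35, - strand) and chr7:45128731-45128760 (Rpl13a, - strand). The others are chr4:86857353-86857382 (Rps6, - strand), chr17:33955651-33955680 (Rps18, - strand), chr5:115559452-115559481 (Rplp0, + strand) and chr9:120127751-120127780 (Rpsa, + strand). They span the last bases of the promoter and the opening bases of the 5′ UTR. The start used in these T cells was not measured, so a run is a match of letters and its lack says nothing of the mRNA. The vector 3 deviation was 0.36 in the median of 34 tested members with the run and 0.32 in that of 28 without it. In vector 2 the medians were -0.23 with the run and -0.22 without, so the library pattern was present in members of either kind.

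The comparison of PTMA with vector asks whether overexpressed PTMA went with a change in the ribosomal protein mRNAs. None of the 82 genes tested passed an adjusted p of 0.05 in edgeR's quasi-likelihood test with Benjamini-Hochberg adjustment, against 0.0121% (2 genes) of all 16592, and the smallest adjusted p of a member was 0.951. At an unadjusted p under 0.05, 0 members were higher in PTMA (background, the share of all genes tested with the same call, 1.92%) and 1, Rpl7a, was lower (background 2.72%). DESeq2 called 0 of 83 members with an adjusted p (background 0.235%) and gave 1 member an unadjusted p under 0.05. Among the 82 members tested in edgeR, the 2 groups did not overlap for 0 on the higher side (background 5.39%) and for Rpl7a alone on the lower side (background 5.38%). The median log2 fold change was -0.03 for members and -0.01 for all genes tested. It was -0.03 for the 49 large-subunit and -0.03 for the 33 small-subunit genes. Of the 82 genes, 61 lay within 0.1 and 80 within 0.25 of no change on the log2 scale, and the exceptions beyond 0.25 are Rpl7a and Rps27rt. The median SE of a member was 0.12, against 0.08 for the 2364 genes at 100 CPM or more.

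The sign of these small values depended on the vector libraries. The log2 fold change was positive for 23 of 82 members (28.0%), against 46.8% of all genes tested. When vector 3 or vector 2 was left out, a member with few counts that failed the filter above passed it, which makes 83. Without vector 3, it was positive for 74 of 83 (background 48.5%) with a median of 0.12. Over the same 82 genes as above, 73 were positive with a median of 0.11. Of the 83, 18 were higher at an unadjusted p under 0.05 (background 7.68%) and 1 was lower (background 7.75%). None passed the adjusted threshold in edgeR (background 0.00578%), and the smallest adjusted p was 0.198. Without vector 2, 9 of 83 were positive (background 49.1%) with a median of -0.13, and 8 of the same 82 genes. There, 0 were higher (background 2.08%) and 11 were lower at an unadjusted p under 0.05 (background 1.88%), and again none passed the adjusted threshold (background 0.0174%; smallest adjusted p 0.741). Most members were thus above 0 without vector 3 and below 0 without vector 2.

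**Figure D3:**
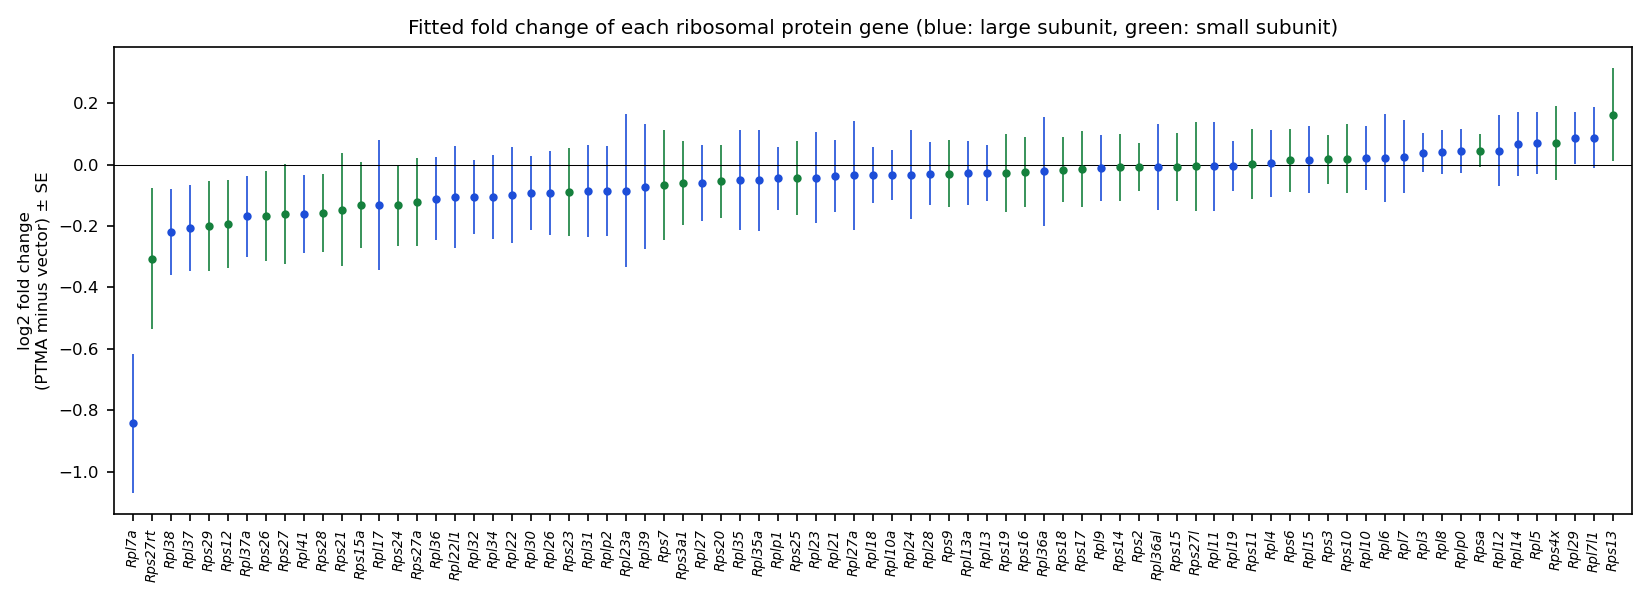
Fitted log2 fold change (PTMA minus vector) with its SE for 79 of the 82 genes tested, in order of size, large-subunit genes in blue and small-subunit genes in green. All shown but Rpl7a (-0.84) and Rps27rt (-0.31) lie within 0.25 of 0.

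By role, the genes of functional sites of the ribosome showed no member past the threshold. The stalk proteins Rplp0, Rplp1 and Rplp2, which recruit translation factors, had log2 fold changes of 0.04, -0.04 and -0.09 (SE 0.07, 0.10 and 0.15). Rplp1 had 259, 267 and 246 CPM in PTMA libraries, against 258, 229 and 308 CPM in vector libraries. Rpl5 and Rpl11 bind the 5S ribosomal RNA and, when free of the ribosome, the p53 regulator MDM2. Rpl5 had 433, 498 and 475 CPM in PTMA libraries and 407, 414 and 518 CPM in vector libraries, a log2 fold change of 0.07 (SE 0.10). Rpl11 had 217, 242 and 226 CPM in PTMA libraries and 204, 192 and 292 CPM in vector libraries, a log2 fold change of -0.01 (SE 0.14). For these genes the PTMA libraries lay within the span of the vector libraries.

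The counts of positive values by role stand beside 28.0% positive over the 82 members and 46.8% over all genes tested. The 9 genes of the exit tunnel had a median log2 fold change of -0.08, with 1 positive value, that of Rpl4. The 3 genes near the decoding centre had a median of -0.09 and no positive value. Among them, Rps27a, made as a fusion with ubiquitin, had 230, 250 and 230 CPM in PTMA libraries, against 239, 208 and 325 CPM in vector libraries. The 7 genes at the mRNA channel had a median of -0.01, with 3 positive values. Without vector 3 the median was 0.16 for the exit tunnel with 9 of 9 positive, 0.11 for the decoding centre with 3 of 3 positive, and 0.05 for the mRNA channel with 6 of 7 positive. Without vector 2 the medians were -0.22, -0.23 and -0.05 in the same order, with 0, 0 and 1 positive. The 9 genes whose human orthologues are mutated in Diamond-Blackfan anaemia, an inherited failure of red cell production, had a median of -0.03, with 2 positive values, against 0.15 and 9 positive without vector 3 and -0.14 and 1 positive without vector 2. Of these, Rps19 had 665, 705 and 625 CPM in PTMA libraries, against 648, 560 and 824 CPM in vector libraries, a log2 fold change of -0.03 (SE 0.13). Rps6, the small-subunit protein phosphorylated downstream of mTORC1, had 694, 677 and 683 CPM in PTMA libraries and 629, 604 and 802 CPM in vector libraries, a log2 fold change of 0.01 (SE 0.10).

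The smallest unadjusted p-values on the lower side after Rpl7a belonged to Rpl38, Rpl37, Rps29, Rps12 and Rps27rt, none of which passed. Rpl38, which in mice is required for the translation of certain Hox mRNAs, had 30.1, 28.6 and 26.5 CPM in PTMA libraries and 33.5, 26.4 and 39.3 CPM in vector libraries. Its log2 fold change was -0.22 (SE 0.14; edgeR adjusted p 0.951), and vector 2 lay below all PTMA libraries. Rpl37, a zinc-binding protein of the large subunit, had 64.3, 60.4 and 65.4 CPM in PTMA libraries and 73.2, 57.3 and 88.6 CPM in vector libraries, a log2 fold change of -0.21 (SE 0.14). Rps12 had 29.4, 26.1 and 33.0 CPM in PTMA libraries and 30.5, 29.8 and 40.8 CPM in vector libraries, a log2 fold change of -0.19 (SE 0.14). In both genes vector 3 was the highest library and the groups overlapped. Rps27rt, a retrogene of Rps27 that overlaps Osbpl10 on the other strand, had 17.8, 29.2 and 18.4 CPM in PTMA libraries and 33.1, 19.8 and 28.0 CPM in vector libraries, a log2 fold change of -0.31 (SE 0.23). On the higher side the smallest belonged to Rps13, Rpl29, Rpl7l1, Rpsa, Rpl5 and Rpl14. Rps13 had the highest log2 fold change of the members, 0.16 (SE 0.15), with 182, 166 and 183 CPM in PTMA libraries and 179, 116 and 180 CPM in vector libraries. Its groups overlapped, and only vector 2 stood low. Rpl29 had 200.4, 199 and 217 CPM in PTMA libraries and 187, 178 and 215 CPM in vector libraries, a log2 fold change of 0.09 (SE 0.08). Rpl14 had 392, 414 and 389 CPM in PTMA libraries and 347, 344 and 451 CPM in vector libraries, a log2 fold change of 0.07 (SE 0.10). For Rpl14 vector 1 and vector 2 lay below all PTMA libraries and vector 3 above them.

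In 4 paralogous pairs the proportions differed little between groups. Per kilobase of the principal transcript, Rpl22l1 stood to Rpl22 as 0.864 ± 0.018 in PTMA and 0.865 ± 0.032 in vector libraries (SD, n = 3 each). Rpl36al stood to Rpl36a as 1.55 ± 0.09 in PTMA and 1.56 ± 0.12 in vector libraries. Rpl7l1 stood to Rpl7 as 0.243 ± 0.008 in PTMA and 0.234 ± 0.015 in vector libraries. Rps27l, a paralog known in human cells as a p53 target, stood to Rps27 as 0.340, 0.364 and 0.320 in PTMA libraries and 0.311, 0.325 and 0.293 in vector libraries. In each of these 4 pairs the groups overlapped. The retrogenes varied more: Rps27rt stood to Rps27 as 0.092, 0.142 and 0.091 in PTMA libraries and 0.159, 0.116 and 0.096 in vector libraries, again with overlap. Rps23rg1 and Rpl3l have too few counts for such a ratio. Rpl10, which takes part in the last steps of large-subunit maturation and is encoded on the X chromosome, had 593, 575 and 580 CPM in PTMA libraries and 562, 490 and 671 CPM in vector libraries. The named paralogs Rpl10l and Rpl39l were not analysed here.

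The fold change of a member went with its transcript length. The 33 tested members with a principal transcript under 600 bases had a median log2 fold change of -0.09, with 3 positive, and the 49 longer ones a median of -0.03, with 20 positive. Over the 82 genes the Spearman rho of fold change with length was 0.575, and that of the vector 3 deviation with length was -0.382. Both are descriptions across genes that share the same 6 libraries. Without vector 3 the rho of fold change with length was 0.315 over the same 82 genes, with medians of 0.10 (26 positive) for the 33 short and 0.13 (47 positive) for the 49 longer members. Without vector 2 it was 0.603, with medians of -0.21 (1 positive) for the short and -0.10 (7 positive) for the longer members. The sign of the values thus turned with the library left out, while the rho stayed positive and was lower without vector 3. Among the shortest, Rps29 had 61.6, 64.5 and 63.8 CPM in PTMA libraries, against 72.6, 56.2 and 89.5 CPM in vector libraries, a log2 fold change of -0.20 (SE 0.15). Rps28 had 40.7, 44.6 and 43.8 CPM in PTMA libraries and 47.5, 39.6 and 56.9 CPM in vector libraries. Among the long members, Rpl3, which reaches towards the peptidyl transferase centre, had 955, 915 and 919 CPM in PTMA libraries and 881, 870 and 964 CPM in vector libraries, a log2 fold change of 0.04 (SE 0.06).

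**Figure D4:**
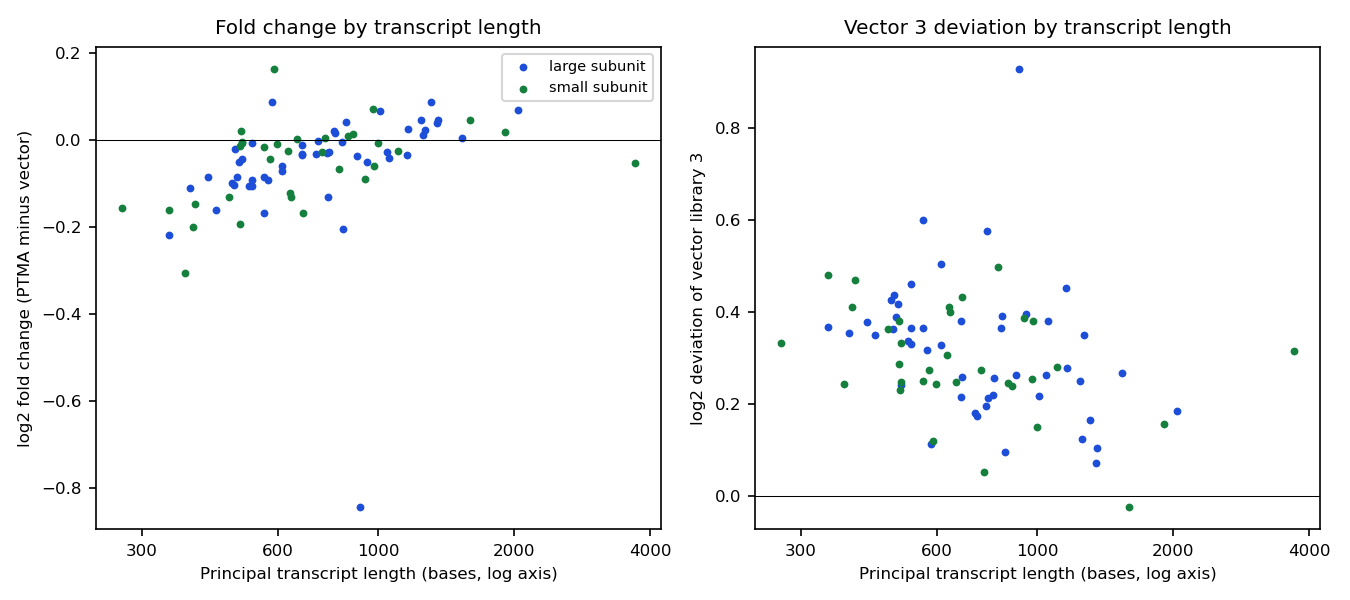
Log2 fold change (PTMA minus vector, left) and deviation of vector library 3 in log2 CPM (right) against principal transcript length in bases (log axis) for the 82 genes tested. Short members tend to lower fold changes (rho 0.575) and to a higher vector 3 deviation (rho -0.382), and Rpl7a is the lowest point on the left and the highest on the right.

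When the median deviation of all members was subtracted from each library, the members' pooled within-group SD came to a median of 0.063, against 0.196 before. Most of the spread between libraries was thus shared by the members. On this centred scale the mean differences ran between -0.77 for Rpl7a and 0.22 for Rps13. The groups did not overlap for 3 of the 82 members on the higher side, Rpl7 and Rps4x among them (background, all genes tested with the same values subtracted, 3.7%). They did not overlap for 7 on the lower side (background 2.38%), Rpl7a, Rps29, Rpl37a, Rps28, Rps24, Rps15a and Rpl30. Rps4x, a small-subunit protein encoded on the X chromosome, had a centred difference of 0.12. That of Rps29 was -0.15 and that of Rpl37a -0.12. These differences carry no test, since the centring uses the members themselves. It takes shared spread out of the members but not out of genes that lack their shift. The backgrounds before centring were 5.39% on the higher and 5.38% on the lower side. The member counts and the centred backgrounds are thus not alike, and no excess is read from them.

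Rpl7a, a large-subunit protein gene on chromosome 2 (ENSMUSG00000062647, 26910764 to 26913318 on GRCm38, + strand), had the largest fitted fold change of the 82 members tested. It had 54.5, 76.2 and 65.8 CPM in PTMA libraries and 108, 82.1 and 163 CPM in vector libraries. Every PTMA library lay below every vector library, by a small margin for PTMA 2 and vector 2. In FPKM the means were 33.1 ± 5.31 in PTMA and 58.8 ± 18.6 in vector libraries (SD, n = 3 each). The log2 fold change was -0.84 (SE 0.23), with an unadjusted p of 0.00478 and an adjusted p of 0.951 in edgeR, so it did not pass. It was negative in all 16 alternative fits, between -1.04 without vector 2 and -0.53 without vector 3, with adjusted p-values between 0.208 and 0.9997. Surf1, the neighbouring gene downstream, had 50.1, 55.4 and 55.7 CPM in PTMA libraries, against 52.0, 48.7 and 56.7 CPM in vector libraries.

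The pseudogene Rpl7a-ps11 (chromosome X, 166854211 to 166855011, + strand), looked at after the Rpl7a values had been seen, differed the other way. It had 107, 108 and 103 CPM in PTMA libraries and 77.9, 83.6 and 85.1 CPM in vector libraries, with no overlap and little spread in either group. Its log2 fold change was 0.37 (SE 0.07), with an unadjusted p of 0.000475 and an adjusted p of 0.318 in edgeR. The fold change was positive in all 16 alternatives, between 0.33 and 0.41, and DESeq2 alone put it past the threshold (adjusted p 0.00257; largest adjusted p over the alternatives 0.9997). The pseudogene's 801 bases align over their whole length with the principal Rpl7a mRNA, with 799 identical bases and 2 mismatches (99.8% identity). Summed over Rpl7a and its 10 named pseudogenes, the family had 172, 193 and 180 CPM in PTMA libraries and 195, 175 and 258 CPM in vector libraries, so the groups overlapped. Reads that match both copies equally well cannot be told apart, and how they were shared out was not tested.

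**Figure D5:**
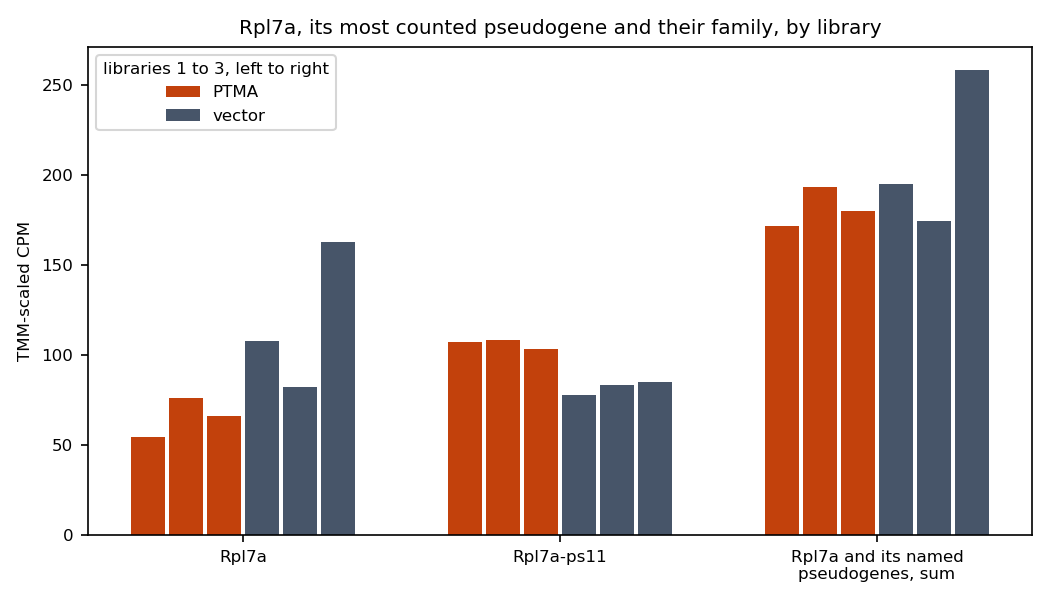
TMM-scaled CPM of Rpl7a, of its pseudogene Rpl7a-ps11 and of Rpl7a summed with its 10 named pseudogenes, 1 bar per library, PTMA left of vector. Rpl7a is lower in every PTMA library, Rpl7a-ps11 is higher in every PTMA library, and the family sums overlap.

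Of the 157 named pseudogenes tested, 43 had a positive log2 fold change (27.4%, against 46.8% of all genes tested), the median was -0.13, and 0 passed the adjusted threshold in edgeR. As for the members, vector 2 and vector 3 stood apart, with median deviations of -0.22 and 0.32. The pseudogene share and median are not given without these libraries, so their sign may rest on them. At an unadjusted p under 0.05, 3 were higher (Rpl7a-ps11, Rps26-ps1 and Rps27a-ps2), 1.91% beside 1.92% of all genes tested. Rps13-ps1 was lower, 0.637% beside 2.72% of all genes tested. Rps26-ps1 had 13.4, 29.7 and 6.22 CPM in PTMA libraries, against 5.72, 4.31 and 5.85 CPM in vector libraries, so PTMA 2 held the highest value and PTMA 3 lay close to the vector libraries.

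Other genes of the translation apparatus, listed by function, also had no gene past the adjusted threshold. Fau, which encodes a ribosomal protein fused to a ubiquitin-like protein, had a log2 fold change of -0.03 (SE 0.13), and Rack1, a small-subunit scaffold, 0.08 (SE 0.06). Among 11 elongation and termination factors the median was 0.03 with 8 positive, and among 38 initiation factors 0.05 with 27 positive. Of all genes tested, 46.8% were positive. Vector 2 was the lowest library for 7 of the 11 and for 24 of the 38, against 20.6% of all genes tested. Values without vector 2 or vector 3 are not given for the lists of this paragraph, so their signs may rest on those libraries. The initiation factor with the smallest p, the cap-binding Eif4e, had 279, 313 and 281 CPM in PTMA libraries, against 245, 245 and 276 CPM in vector libraries, a log2 fold change of 0.19 (SE 0.08; edgeR adjusted p 0.951). Among 19 other mRNAs known to carry a TOP tract the median was 0.00 with 10 positive, and vector 3 was the highest library for 15 of them. Among 13 genes that control TOP mRNAs, such as Mtor and Larp1, the median was -0.01 with 6 positive.

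The 6 dedicated chaperones of ribosomal proteins had a median of 0.12 with 4 positive, beside a median of -0.01 and 46.8% positive over all genes tested. Vector 1 was the lowest library for 3 of the 6, and values without single libraries are not given for this list. The one with the smallest p was Tsr2, the chaperone of Rps26. It had 32.3, 33.9 and 34.0 CPM in PTMA libraries and 26.1, 27.6 and 28.9 CPM in vector libraries. The groups did not overlap, as for 5.39% of all genes tested on the higher side. Its log2 fold change was 0.28 (SE 0.09), with an unadjusted p of 0.0109 and an adjusted p of 0.951 in edgeR, so it did not pass. Its client Rps26 had 206, 213 and 212 CPM in PTMA libraries and 226, 185 and 298 CPM in vector libraries. The log2 fold change of Rps26 was -0.17 (SE 0.15). Its groups overlapped, with vector 2 the lowest and vector 3 the highest library.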

How the data were processed

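Poly(A) RNA was sequenced from both ends on an Illumina NovaSeq per the labels' protocols, and the 6 libraries were grouped by sample title. The protocol mentions adipose material, unlike the cell type label. The authors deposited raw gene counts, whole numbers, in a table of 27480 rows. FPKM per library stand in the same deposited table. Per the submitters' processing notes, the tools were Bowtie 0.12.2, StringTie 1.3.0 and HISAT2 2.0 and the build mm8, with no roles. The table's coordinates are those of GRCm38: all 84 members share a gene start or end with GENCODE M21. Which program counted reads, whether it used strand and how it handled multi-mapping reads is not given in the sources used here.

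Counts were fitted for all genes with edgeR 4.0.16 (R 4.3.3): TMM scaling, filterByExpr with a minimum count of 10, group as the only term, the quasi-likelihood test and Benjamini-Hochberg adjustment at 0.05 over 16592 genes. SE is the absolute log2 fold change divided by the square root of F. CPM is TMM-scaled, and log2 CPM uses a prior count of 2. Alternatives were other scalings, no filter, DESeq2 1.42.0, limma 3.58.1 on log2(FPKM + 1), a replicate block and leaving out each library in turn. Tested on simulated counts for this comparison with 16592 genes, edgeR recovered 59.7% of genes changed 1.5-fold, 82.1% of those changed 2-fold and 90.9% of those changed 4-fold. It also called 10 genes that were not changed, and DESeq2 called 48 such genes on the same counts. The simulation changed 200 genes and drew each gene independently, so it lacks the library shift that the members share. These shares therefore do not give the recovery for the members. Rpl7a and Rpl7a-ps11 were aligned with Biopython 1.88.

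The members, lists and rules were chosen with earlier results of these data known. Named members are those with the smallest p-values (6 per direction), the highest and lowest FPKM (6 each), the largest and smallest within-group SD (5 each), the stalk, 5S and paralog lists and Rps6, Rpsa, Rpl38, Rps19 and Rps27a. Other members were named after their values were seen. Some genes that this rule takes are not reported here.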

Additional observations from a re-analysis of the deposited data

How the results depend on the processing

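In each of 16 alternative fits, 0 ribosomal protein genes passed the adjusted threshold, as in the fit reported. The median log2 fold change of the members was -0.03 as reported. It ranged between -0.13 and 0.12 when 1 library was left out, without vector 2 and without vector 3 as the extremes, and between -0.06 and -0.02 in the 10 other alternatives. The count past the threshold was 0 throughout the fits that leave out a library. The difference in the share of counts ranged between -0.253 and 0.137 percentage points when 1 library was left out. It was -0.087 points without mitochondrially encoded genes in the total, -0.199 points for summed FPKM and -0.089 points with the named pseudogenes added. With the replicate block the median was -0.02 and 0 genes passed. Libraries with the same number had deviations correlated at -0.12, -0.156 and -0.117. These values show no pairing by number. They cannot exclude one, since large differences of single libraries also enter them, and the labels do not state it. Of 41 named members, 14 kept the sign of their fold change in every alternative, and all 656 of their values stayed on the same side of the threshold. Scaling by library totals alone moved the median of all genes to -0.04 and left 12 of 82 members (40.4% of all genes) with a positive value. Depth did not limit the tested members, whose lowest count in a library was 801.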
